A study of Mus musculus with 6 samples.

Results

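Latent TGFβ binding and anchoring proteins are described here in perichondrium, the fibrous layer that wraps growing cartilage, from 6 RNA sequencing libraries of mouse limb bones taken 4 days after birth. The 6 genes are Ltbp1, Ltbp2, Ltbp3, Ltbp4, Lrrc32 and Nrros, taken by symbol from the 55536 genes of the deposited count matrix, and each symbol matched 1 gene identifier of GENCODE M21. All 6 passed the filter on low counts, which kept 15712 genes. There were 3 libraries from Fbn1Scx-/- mice and 3 from WT mice, each named by the number in its title (mut-596, WT-596 and so on), and values per library run from mut-596 through mut-597 to mut-795, and likewise in WT. Fbn1 encodes fibrillin-1, the genotype label names its loss under Scx, the scleraxis gene of tendon and ligament progenitors, and the title of mut-596 names an Scx Cre. The labels do not give the deleted exons, nor whether WT mice carried Cre or a floxed allele. The comparison asks which of these transcripts differ between Fbn1Scx-/- and WT perichondrium, in a study whose title concerns TGFβ signalling and bone overgrowth.

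TGFβ is secreted in a latent form, in which the cleaved propeptide (latency-associated peptide) stays wrapped around the growth factor. In the secretory pathway the propeptide is disulphide-linked to a carrier, and the carrier decides where the latent growth factor is stored. In connective tissue the carriers are latent TGFβ binding proteins (LTBPs), large relatives of the fibrillins that place the complex on fibrillin microfibrils and fibronectin. LTBP-1 and LTBP-3 bind the propeptides of all TGFβ isoforms, LTBP-4 binds that of TGFβ1 weakly, and LTBP-2 does not bind latent TGFβ and is known as a fibrillin-1 ligand and elastic fibre protein. On cell surfaces the carriers are leucine-rich repeat membrane proteins: LRRC32 (also called GARP) is known from regulatory T cells, platelets and endothelium, and NRROS (also called LRRC33) from macrophages and microglia.

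The C-terminal region of LTBPs carries the last of their cysteine-rich TB domains, each marked by 3 cysteines in a row, and is the part known to attach LTBP-1 to fibrillin-1. The stretches below show the coding sequence around the last such run in the longest annotated coding transcript of each LTBP gene, because this is the region through which LTBP-1 meets the protein of the deleted gene and because the genes differ in base composition. Each stretch is 99 bases long, is given 5′ to 3′ on the coding strand in GRCm38, lies within 1 exon, and has the 3 cysteine codons in capitals.
Ltbp1, chr17:75364401-75364499, plus strand, exon 32 of 35: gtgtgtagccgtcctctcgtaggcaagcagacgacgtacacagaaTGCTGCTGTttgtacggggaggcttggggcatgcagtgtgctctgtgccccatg
Ltbp2, chr12:84785738-84785836, minus strand, exon 33 of 36: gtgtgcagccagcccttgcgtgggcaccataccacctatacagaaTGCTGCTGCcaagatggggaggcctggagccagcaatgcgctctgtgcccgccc
Ltbp3, chr19:5757364-5757462, plus strand, exon 25 of 28: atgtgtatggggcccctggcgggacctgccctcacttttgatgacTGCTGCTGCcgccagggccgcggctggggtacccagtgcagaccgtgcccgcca
Ltbp4, chr7:27307778-27307876, minus strand, exon 30 of 33: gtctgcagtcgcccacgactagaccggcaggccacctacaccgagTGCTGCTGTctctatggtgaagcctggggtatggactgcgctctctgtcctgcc
Each of the 4 coding sequences held 3 such runs. The GC content of these stretches was 58.6% for Ltbp1, 63.6% for Ltbp2, 68.7% for Ltbp3 and 62.6% for Ltbp4. Over the whole coding sequence it was 54.3% for Ltbp1, 59.7% for Ltbp2, 62.2% for Ltbp3 and 62.4% for Ltbp4.

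Total counts per library lay between 7209217 and 10316017. Fbn1, the deleted gene, was at 10.04, 6.75 and 7.10 CPM (counts scaled to library size, here by TMM) in the Fbn1Scx-/- libraries, against 119, 84.7 and 63.5 CPM in the WT libraries. It was the 1 gene that passed the test over all 15712 genes (log2 fold change -3.48, SE 0.29, edgeR adjusted p = 1.03e-04). Xist, which is transcribed from the inactive X chromosome, was counted 6221 times in mut-596, 4024 times in mut-597 and at most 4 times in the other libraries, so sex was not balanced between the groups. With Xist as a covariate Fbn1 was at -3.69 (edgeR adjusted p = 0.0984) and Ltbp4, described below, at -1.28 (SE 0.59, edgeR adjusted p = 0.939). Both libraries with high Xist were mutant, so this covariate is partly tied to genotype and cannot fully separate sex from it. The labelled tissue was checked on 12 perichondrium and fibroblast markers, led by Col1a2, all of which had counts in every library and which together made up 27214 to 29230 CPM in Fbn1Scx-/- and 29030 to 30616 CPM in WT. WT-795 stood apart from the other WT libraries: without it, 1512 genes passed in place of 1. Mitochondrial genes took 11.0%, 8.04% and 9.24% of counts in the Fbn1Scx-/- libraries, against 5.57%, 4.12% and 8.77% in the WT libraries, so this share was higher in the mutant libraries and in WT-795, the libraries low in Ltbp4. Its part in the levels of the 6 genes was not tested. The labels do not say that libraries came from separate animals. Xist was high in mut-596 and mut-597 but not in mut-795, so the mutant libraries did not all come from 1 animal. Whether each library was a separate animal is not known. The p-values here therefore cover only the spread among libraries, part of which may be technical. In bulk tissue, fewer cells of a type and less RNA per cell cannot be told apart.

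Of the 6 genes, 0 passed the edgeR quasi-likelihood test with Benjamini-Hochberg adjustment over all genes at a threshold of 0.05, and 0 passed by DESeq2. The background was 0.00636% of genes called lower, which is Fbn1 alone, and 0% called higher. At an unadjusted p under 0.05, Ltbp2, Ltbp3 and Ltbp4 were lower in Fbn1Scx-/- and 0 of the 6 genes were higher, where 7.12% of all genes tested were lower and 3.37% higher. On the log2 fold change 5 of the 6 genes lay below 0, all but Ltbp1, as did 49.1% of all genes tested, and the median of the 6 was -0.63, beside 0.01 for all genes tested.

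Ltbp4 had the largest fitted difference of the 6. Its protein is an LTBP that takes part in elastic fibre assembly through fibulins as well as in carrying TGFβ1. It was at 10.3, 23.4 and 15.3 CPM in the Fbn1Scx-/- libraries, against 44.8, 49.9 and 17.6 CPM in the WT libraries. WT-596 and WT-597 lay above every mutant library, while WT-795 lay within the mutant range, so the groups overlapped. The means were 16.3 ± 6.61 CPM in Fbn1Scx-/- and 37.4 ± 17.4 CPM in WT (SD, n = 3 each), a difference of -56.4% in the mean. The log2 fold change was -1.21 (SE 0.36, 95% interval -1.98 to -0.43), and the edgeR adjusted p was 0.459. Reads counted were 78, 156 and 149 in the mutant libraries against 472, 529 and 127 in the WT libraries. Without WT-795 the log2 fold change was -1.57 (edgeR adjusted p = 0.00835), and 6.12% of all genes were then called lower. With no filter on low counts it passed at -1.23 (edgeR adjusted p = 0.00127), where 0.742% of genes were called lower. The gene (ENSMUSG00000040488) spans 27305136 to 27337692 of chromosome 7 in GRCm38, minus strand.

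Ltbp3, whose protein helps to secrete and store TGFβ in bone and cartilage and whose loss in mice gives skeletal defects, had a smaller fitted difference and less spread within each group. It was at 29.4, 35.5 and 31.6 CPM in the Fbn1Scx-/- libraries, against 52.7, 51.0 and 37.4 CPM in the WT libraries. Every mutant library lay below every WT library, and 6.22% of all genes tested had such a separation with the mutant side lower. The gap was narrow, between 35.5 CPM in mut-597 and 37.4 CPM in WT-795. The log2 fold change was -0.55 (SE 0.22, 95% interval -1.02 to -0.08), with an edgeR adjusted p of 0.459. Without WT-795 it was -0.72 (edgeR adjusted p = 0.0406). Ltbp3 (ENSMUSG00000024940) spans 5740904 to 5758532 on the plus strand of chromosome 19.

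Ltbp2, the fibrillin-binding member that does not carry TGFβ, was at 4.62, 7.05 and 6.58 CPM in the Fbn1Scx-/- libraries, against 10.5, 11.6 and 7.48 CPM in the WT libraries. The groups did not overlap, again by a narrow gap at WT-795. These levels rest on 35 to 64 counts per mutant library and 54 to 123 per WT library. The log2 fold change was -0.70 (SE 0.29, 95% interval -1.33 to -0.08), with an edgeR adjusted p of 0.459. Ltbp2 (ENSMUSG00000002020, minus strand of chromosome 12, 84783212 to 84876532) shares 9.34% of its exonic bases with the antisense gene D030025P21Rik, which had between 2 and 9 counts per library. Reads there cannot be assigned to 1 of these genes by strand, since the library chemistry does not mark it.

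Ltbp1, which encodes a carrier of latent TGFβ whose C-terminus binds fibrillin-1, was the exception in direction. It was at 83.1, 73.5 and 79.9 CPM in the Fbn1Scx-/- libraries, against 73.9, 65.2 and 79.8 CPM in the WT libraries. The groups overlapped, and Ltbp1 had the smallest relative spread of the 6 genes, with a coefficient of variation of 6.19% in Fbn1Scx-/- and 10.1% in WT. Its log2 fold change was 0.11 (SE 0.20), with a 95% interval of -0.33 to 0.55 and an edgeR adjusted p of 0.813. The gene (ENSMUSG00000001870) spans 75005568 to 75392512 on the plus strand of chromosome 17.

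**Figure D1:**
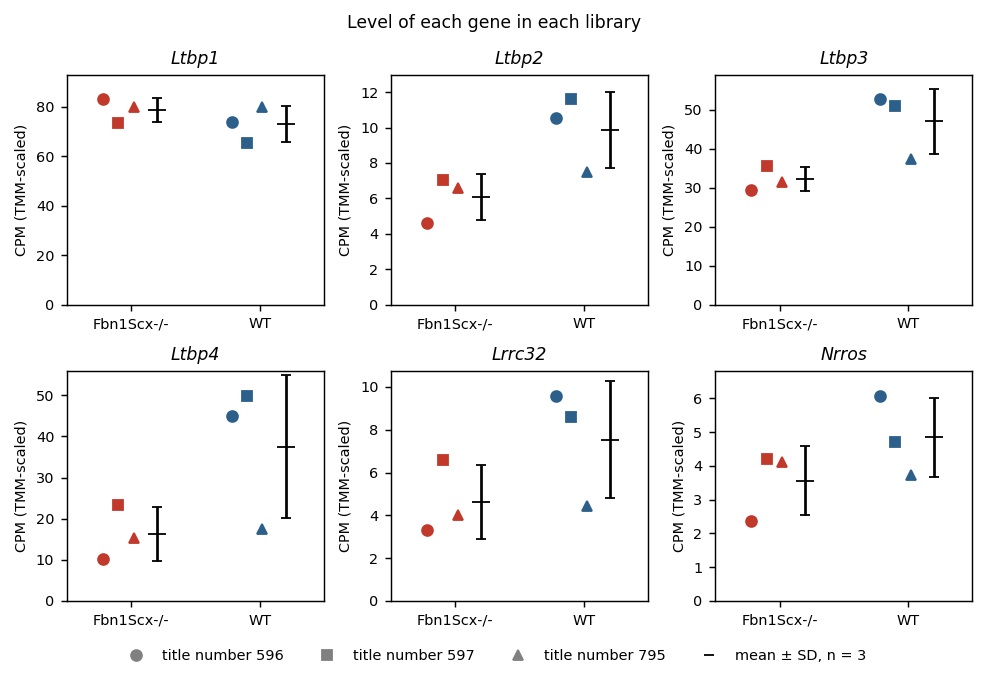
Level of each of the 6 genes in each library, in CPM scaled by TMM, on a linear axis from 0. Points are libraries (Fbn1Scx-/- left in red, WT right in blue), marker shapes give the number in the title, and black bars give the mean and SD of 3 libraries. WT-795 (blue triangle) is the lowest WT library for every gene but Ltbp1 and sits inside the mutant range for Ltbp4, Lrrc32 and Nrros.

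Both membrane anchors were weakly expressed. Lrrc32 was at 3.30, 6.60 and 4.01 CPM in the Fbn1Scx-/- libraries, against 9.59, 8.59 and 4.43 CPM in the WT libraries. The groups overlapped through WT-795, and the log2 fold change was -0.72 (SE 0.36, 95% interval -1.49 to 0.05), with an edgeR adjusted p of 0.475. Nrros was at 2.38, 4.20 and 4.11 CPM in the Fbn1Scx-/- libraries, against 6.08, 4.72 and 3.74 CPM in the WT libraries. The groups overlapped, and the log2 fold change was -0.45 (SE 0.35, 95% interval -1.20 to 0.30), with an edgeR adjusted p of 0.578. Counts for these genes were 25 to 44 (Lrrc32) and 18 to 40 (Nrros) per mutant library and 32 to 101 (Lrrc32) and 27 to 64 (Nrros) per WT library, so counting error alone is large. Lrrc32 (ENSMUSG00000090958) lies on chromosome 7 from 98489283 to 98502181 on the plus strand, and Nrros (ENSMUSG00000052384) on chromosome 16 from 32142785 to 32165594 on the minus strand.

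Markers of the cell types known for the membrane anchors were counted to different degrees, which does not show that each cell type was present. All 14 macrophage markers had counts in every library, with a summed level of 217 to 241 CPM in Fbn1Scx-/- and 201 to 273 CPM in WT. This sum pools genes that went both ways: of 13 tested, 6 had a log2 fold change below 0, with a median of 0.002. Mrc1, the most abundant, was at 55.0 to 74.7 CPM in Fbn1Scx-/- and 35.5 to 47.4 CPM in WT. Such a separation, in either direction, was seen in 11.9% of all genes tested. The 10 endothelial markers, led by Pecam1, summed to 191 to 225 CPM in Fbn1Scx-/- and 197 to 211 CPM in WT. The 7 platelet markers summed to 38.2 to 61.4 CPM in Fbn1Scx-/- and 41.0 to 112 CPM in WT, with 4 of them counted in every library. Most of this was Pf4 alone, at 34.5 to 57.9 CPM in Fbn1Scx-/- and 38.2 to 108 CPM in WT. Of the 8 T cell and regulatory T cell markers, 2 had counts in every library, Ikzf2 (the most abundant) and Foxp3, while the CD3 chain genes Cd3d, Cd3e and Cd3g had between 0 and 3 counts per library. The ranges of all 4 lists overlapped between the groups, and the part of these cells in the levels of Lrrc32 and Nrros was not tested. Tendon markers summed to 591 to 703 CPM in Fbn1Scx-/- and 747 to 991 CPM in WT, without overlap. Much of each sum was Fmod, at 221 to 246 CPM in Fbn1Scx-/- and 277 to 531 CPM in WT. Of single genes, 6.22% of all tested separated with the mutant side lower. Of the 8 tendon genes, 7 had a log2 fold change below 0, as did 49.1% of all genes tested. Skeletal muscle markers summed to 3114 to 6199 CPM in Fbn1Scx-/- and 4101 to 12916 CPM in WT, led by Acta1. Chondrocyte markers summed to 2957 to 3029 CPM in Fbn1Scx-/- and 2053 to 3335 CPM in WT. Most of each sum was Col11a1 alone, at 2594 to 2714 CPM in Fbn1Scx-/- and 1707 to 2853 CPM in WT. This sum pools genes that went both ways: of 10 tested, 2 had a log2 fold change below 0, with a median of 0.26. The part of tendon, muscle and cartilage in the levels of the 6 genes was not tested beyond covariates. With a covariate for the muscle markers, Ltbp4 was at a log2 fold change of -0.78 and Lrrc32 at -0.48. With a covariate for the chondrocyte markers they were at -0.83 and -0.51, against -1.21 and -0.72 with no covariate. No covariate for the tendon markers was run.

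The order of the 6 genes can be read only per length, as CPM per kilobase of exon (RPKM). In Fbn1Scx-/- libraries Ltbp1 came first at 7.37 ± 0.456 RPKM, followed by Ltbp3 at 3.55 ± 0.341, Ltbp4 at 2.53 ± 1.02, Lrrc32 at 0.989 ± 0.370, Nrros at 0.853 ± 0.246 and Ltbp2 at 0.744 ± 0.157 RPKM (SD, n = 3). In WT libraries Ltbp1 came first at 6.83 ± 0.688 RPKM, followed by Ltbp4 at 5.79 ± 2.69, Ltbp3 at 5.19 ± 0.926, Lrrc32 at 1.61 ± 0.583, Ltbp2 at 1.21 ± 0.262 and Nrros at 1.16 ± 0.281 RPKM (SD, n = 3). In Fbn1Scx-/- the step from Ltbp1 to Ltbp3 was larger than the spread, while Ltbp3 and Ltbp4 lay within it, as did Lrrc32, Nrros and Ltbp2. In WT, Ltbp1 and Ltbp4 lay within their spread, as did Ltbp4 and Ltbp3, and the last 3 genes, while the step from Ltbp3 to Lrrc32 was larger than the spread. Among all genes tested, Ltbp1 stood at percentile 72.5 of per-length level in Fbn1Scx-/- and 70.1 in WT, and Ltbp4 at percentile 46.2 in Fbn1Scx-/- and 66.7 in WT.

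Shares within a library do not depend on how libraries are scaled to each other. Ltbp1 took 59.0%, 45.0% and 52.9% of the summed LTBP level in the Fbn1Scx-/- libraries, and 33.0%, 29.2% and 49.0% in the WT libraries. Ltbp4 took 12.1%, 23.7% and 16.8% in the Fbn1Scx-/- libraries, and 33.1%, 37.0% and 17.9% in the WT libraries. Both shares overlapped between the groups through WT-795, in which they lay within the mutant range. The Ltbp3 and Ltbp2 shares of WT-795, at 27.1% and 6.00%, lay above those of every mutant library. The Ltbp3 share was 24.98 ± 0.588% in Fbn1Scx-/- and 27.3 ± 0.417% in WT (SD, n = 3), and the Ltbp2 share 5.21 ± 0.796% in Fbn1Scx-/- and 6.32 ± 0.421% in WT (SD, n = 3), neither overlapping. Exact two-sided permutation tests gave p = 0.2 for Ltbp1 and Ltbp4 and p = 0.1, the smallest value possible for 3 libraries against 3, for Ltbp2 and Ltbp3. With GC correction the Ltbp3 difference was -1.04 percentage points, against -2.29 without it, and its groups overlapped (exact permutation p = 0.2), while the Ltbp2 difference was -0.83 points and its groups did not. The Ltbp2 difference was -1.11 points on all libraries and -0.65 points without mut-596 (exact permutation p = 0.2). It was -0.87 points without WT-597 (exact permutation p = 0.3) and -1.19 points without WT-596 (exact permutation p = 0.2). Leaving out WT-795 gave a difference of 21.2 points for Ltbp1 and -17.5 points for Ltbp4, against 15.2 and -11.8 points on all libraries. The summed level of the 4 genes was 14.2 ± 1.05 RPKM in Fbn1Scx-/- and 19.0 ± 3.28 RPKM in WT (SD, n = 3, exact permutation p = 0.2), with mut-597 at 15.3 RPKM just above WT-795 at 15.2 RPKM.

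**Figure D2:**
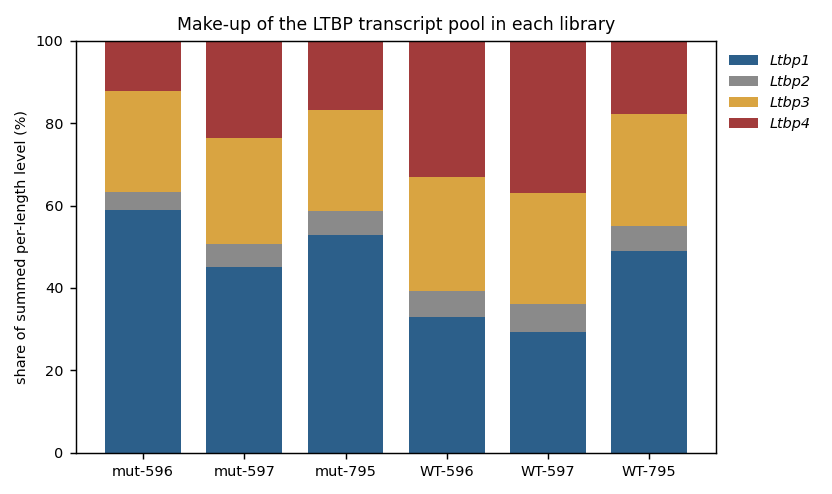
Share of each LTBP gene in the summed per-length level of Ltbp1, Ltbp2, Ltbp3 and Ltbp4, in percent, in each library (Fbn1Scx-/- left, WT right). The Ltbp4 segment is largest in WT-596 and WT-597 (33.1% and 37.0%), and WT-795 (17.9%) looks like the mutant libraries (12.1% to 23.7%).

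The log2 ratio of Ltbp1 to Ltbp4 was the one that differed most among the 6 pairs of LTBP genes. It was 1.62 ± 0.68 in Fbn1Scx-/- and 0.37 ± 0.95 in WT (SD, n = 3), a difference of 1.25 (exact permutation p = 0.2, 0.3 adjusted over the pairs). Ltbp2 and Ltbp3 kept the most even ratio, at -2.27 ± 0.22 in Fbn1Scx-/- and -2.11 ± 0.11 in WT (SD, n = 3, exact permutation p = 0.4, adjusted 0.4). Without GC correction no ratio separated the groups, and the smallest adjusted p of the 6 pairs was 0.3. With the GC correction described below, the ratios of Ltbp1 to Ltbp2 (difference 0.61) and of Ltbp1 to Ltbp3 (difference 0.45) did not overlap between the groups (exact permutation p = 0.1, adjusted 0.3, for both). Without WT-795 the Ltbp1 to Ltbp4 difference was 1.80 and the smallest adjusted p was 0.2.

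Fold changes followed transcript GC content across the transcriptome. Over 14363 genes, which are not independent replicates, Spearman's rho of log2 fold change with the GC content of the longest transcript was -0.63, and the median gene had a GC content of 49.2%. All 6 genes lay above that median, from 52.7% for Ltbp1 to 62.2% for Ltbp4. Ltbp2, Ltbp3 and Lrrc32 had GC contents of 58.5%, 58.3% and 58.3%, where the fold change trend of all genes stood at -0.42, -0.41 and -0.42, and Ltbp4 at -1.21 stood beside a trend value of -0.47. Ltbp1 at 0.11 lay above a trend value of -0.19.

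**Figure D3:**
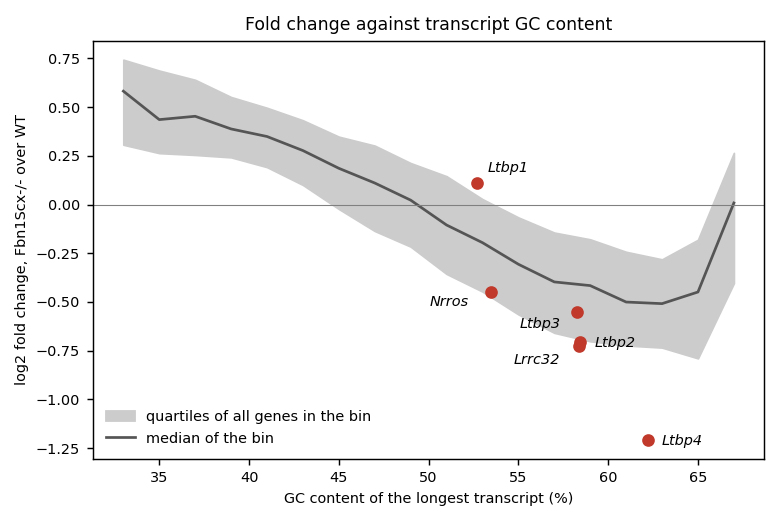
Log2 fold change (Fbn1Scx-/- over WT) against GC content of the longest transcript. The line and band give the median and quartiles of all genes in bins of 2 percentage points that hold at least 20 genes, and red points are the 6 genes. Ltbp4 lies below the band, Ltbp2, Lrrc32 and Nrros lie at its lower edge, Ltbp3 lies within it and Ltbp1 lies above it.

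With the GC trend of each library taken out, the fitted differences of the 5 lower genes were smaller and that of Ltbp1 larger. Ltbp4 was at a log2 fold change of -0.73 (SE 0.27, 95% interval -1.32 to -0.15, unadjusted p = 0.0179, edgeR adjusted p = 0.760), where 4.16% of all genes were lower at an unadjusted p under 0.05. Ltbp3 was at -0.16 (SE 0.17, 95% interval -0.53 to 0.21) and Ltbp2 at -0.31 (SE 0.24, 95% interval -0.83 to 0.21). Lrrc32 was at -0.32 (SE 0.30), Nrros at -0.23 (SE 0.32) and Ltbp1 at 0.28 (SE 0.19). The 5 genes were again below 0, as were 49.7% of all genes, with a median of the 6 at -0.27 beside 0.00 for all genes. On all 6 libraries Ltbp4 was the single gene of the 6 whose interval kept clear of 0 with this correction. That rested on single libraries, since the interval reached 0 when any of 4 libraries was left out. Ltbp4 was then at -0.56 (SE 0.29) without mut-596, at -0.71 (SE 0.33) without mut-795, at -0.63 (SE 0.31) without WT-596 and at -0.57 (SE 0.29) without WT-597, with edgeR adjusted p between 0.670 and 0.999. It was at -0.97 both without mut-597 (edgeR adjusted p = 0.899) and without WT-795 (edgeR adjusted p = 0.0741), where 0.465% of genes were called lower in the fit without WT-795. In that fit Ltbp1 was at 0.43 (unadjusted p = 0.0440, edgeR adjusted p = 0.276). At an unadjusted edgeR p under 0.05, 1209 of all 15712 genes were then higher.

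**Figure D4:**
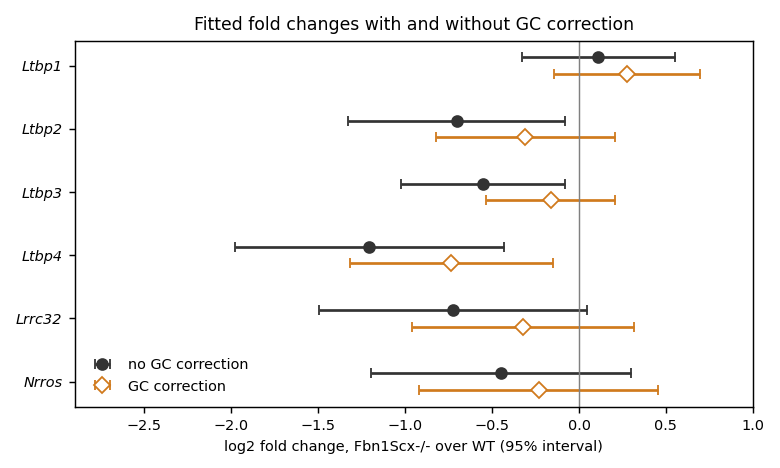
Fitted log2 fold changes (Fbn1Scx-/- over WT) with 95% intervals for the 6 genes, without (filled circles) and with (open diamonds) the GC correction. The interval of Ltbp4 stays below 0 in both, at -1.98 to -0.43 and -1.32 to -0.15, and those of Ltbp2 and Ltbp3 include 0 after correction.

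Promoter sequence was looked at because Ltbp2, Ltbp3 and Ltbp4 lay on the same side of 0 and Ltbp1 did not. RefSeq (GRCm38.p6) held promoters for 5 of the 6 genes, and Lrrc32 had no entry. The stretches run from 250 to 101 bases before the most upstream RefSeq start, 5′ to 3′ on the gene's strand, with GC boxes (GGGCGG) and SMAD boxes (CAGAC) in capitals, each searched on both strands. Matches in these stretches share no base.
Ltbp1, chr17:75005279-75005428, plus strand: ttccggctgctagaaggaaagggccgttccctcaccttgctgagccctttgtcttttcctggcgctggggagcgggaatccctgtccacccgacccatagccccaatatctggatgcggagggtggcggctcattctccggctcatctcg
Ltbp2, chr12:84876592-84876741, minus strand: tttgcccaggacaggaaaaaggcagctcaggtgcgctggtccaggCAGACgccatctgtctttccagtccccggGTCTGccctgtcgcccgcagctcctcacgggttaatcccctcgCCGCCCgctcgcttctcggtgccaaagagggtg
Ltbp3, chr19:5740650-5740799, plus strand: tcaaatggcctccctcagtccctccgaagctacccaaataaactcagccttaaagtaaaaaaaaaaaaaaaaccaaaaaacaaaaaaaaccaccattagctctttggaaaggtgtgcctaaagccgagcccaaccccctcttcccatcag
Ltbp4, chr7:27337713-27337862, minus strand: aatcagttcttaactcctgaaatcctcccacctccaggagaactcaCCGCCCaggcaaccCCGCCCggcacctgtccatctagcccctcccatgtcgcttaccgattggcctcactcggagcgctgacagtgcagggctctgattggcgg
Over the full 300 bases of each promoter, GC boxes numbered 0 for Ltbp1, 2 for Ltbp2, 0 for Ltbp3, 3 for Ltbp4 and 0 for Nrros, and 35.7% of 32851 promoters held at least 1. SMAD boxes numbered 1 for Ltbp1, 3 for Ltbp2, 2 for Ltbp3, 0 for Ltbp4 and 1 for Nrros, and 49.6% of promoters held at least 1. Promoter GC content was 58.7% for Ltbp1, 61.0% for Ltbp2, 48.0% for Ltbp3, 64.3% for Ltbp4 and 59.0% for Nrros, beside a median of 52.7%.

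The authors' deposited table, which lists 1643 genes, holds 3 of the 6. It gives mutant against WT log2 fold changes of -0.71 for Ltbp2, -0.56 for Ltbp3 and -1.21 for Ltbp4, and 1114 of its genes are lower, which is 3.49% of genes with any count. These 3 values match a DESeq2 fit of the counts, in which the unadjusted p was 0.0367 for Ltbp2, 0.0200 for Ltbp3 and 0.00109 for Ltbp4 and the DESeq2 adjusted p was 0.458, 0.408 and 0.186. Of the listed genes, 1271 were matched by symbol, and all of them had an unadjusted DESeq2 p under 0.05. The share of 3.49% is over 31958 genes with any count, including those that failed the filter on low counts. Of the 15712 genes that passed it, as the 6 genes did, 7.12% were lower at an unadjusted edgeR p under 0.05.

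The direction of each gene held when any 1 library was left out. Ltbp4 ranged from -1.57 to -0.96 on the log2 scale, Lrrc32 from -1.05 to -0.52, Ltbp2 from -0.89 to -0.54, Ltbp3 from -0.72 to -0.46, Nrros from -0.62 to -0.23 and Ltbp1 from 0.02 to 0.16. Leaving out WT-795 gave the calls of Ltbp3 and Ltbp4 named above, and leaving out any other single library gave 0 calls among the 6, with 0.00636% to 0.0318% of all genes called lower. The 6 genes also had 0 calls with a stricter filter (0.00617% of genes called lower), without ribosomal-like and mitochondrial genes (0.00646%) and by DESeq2 (0.00748%).

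**Figure D5:**
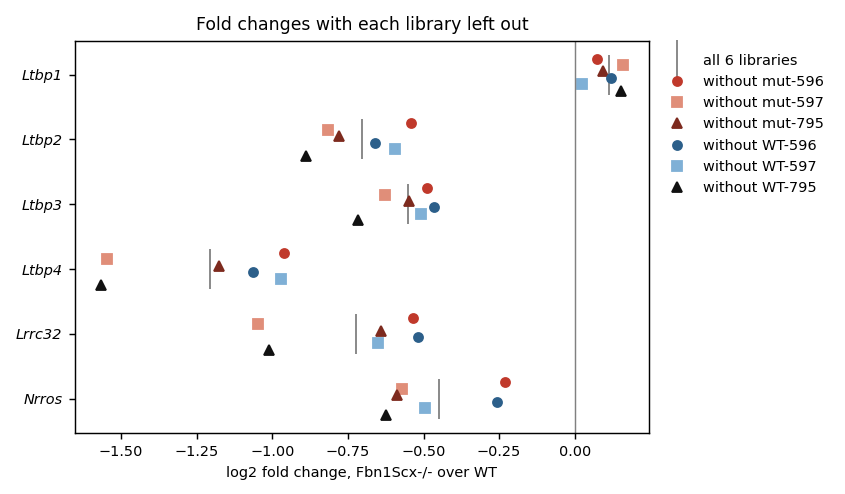
Log2 fold change (Fbn1Scx-/- over WT) of the 6 genes in fits that each leave out 1 library, with the value from all 6 libraries as a grey bar. Ltbp4 lies furthest from 0 without WT-795 (-1.57) and nearest without mut-596 (-0.96), and no gene crosses 0.

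The other genes that handle latent TGFβ were read from lists of ligands, matrix partners, release factors, and receptors with SMADs. Among the ligands, Tgfb1 was at 7.79, 11.5 and 7.82 CPM in the Fbn1Scx-/- libraries, against 26.6, 24.7 and 9.28 CPM in the WT libraries. WT-795 lay within the mutant range, as for Ltbp4, and the log2 fold change was -1.17 (SE 0.35, edgeR adjusted p = 0.459). Tgfb3 was at -0.70 (SE 0.24) and Tgfb2 at 0.13 (SE 0.22), and 0 of the 3 ligand genes passed. Of 14 tested matrix partners of the LTBPs, Fbn1 fell and the others did not pass, with a median log2 fold change of -0.14. Mfap2, a microfibril glycoprotein gene, was at -0.71 (SE 0.24) and Hspg2, the perlecan gene, at -0.58 (SE 0.24). Of 18 genes for the release of TGFβ from the complex, 0 passed and the median was 0.13. Mmp2, a gelatinase gene, was at -1.23 (SE 0.31), Bmp1, whose protease cleaves LTBP-1, at -0.70 (SE 0.27), and Itgb8, whose integrin activates latent TGFβ presented by membrane anchors, at 0.77 (SE 0.29). Of 9 receptors and SMADs, 0 passed and the median was 0.16, with the co-receptor Eng at -0.54 (SE 0.24), the receptor Acvrl1 at -0.64 (SE 0.33) and the receptor Tgfbr1 at 0.42 (SE 0.22). Without WT-795, Tgfb1, Tgfb3, Mfap2, Mmp2 and Bmp1 passed the edgeR test, all lower, where 6.12% of all genes were called lower. With no filter on low counts Tgfb1 passed at -1.20 (edgeR adjusted p = 0.00646) and Mmp2 at -1.25 (edgeR adjusted p = 3.89e-04), where 0.742% of genes were called lower. With the GC correction on all 6 libraries, Tgfb1 was at -0.98, Tgfb3 at -0.50, Mmp2 at -0.89, Mfap2 at -0.30 and Bmp1 at -0.33. Hspg2 was then at -0.16, Eng at -0.16, Acvrl1 at -0.26, Tgfbr1 at 0.10 and Itgb8 at 0.42, and apart from Tgfb1, Tgfb3 and Mmp2 each of these values was smaller by over 1.5 times than without the correction.

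Genes whose profile over the 6 libraries lay closest to a member were found by the root-mean-square difference of centred log2 CPM among 7732 protein-coding genes that averaged 3 or more on the log2 CPM scale. For Ltbp4 they were Rhog, Sh3bgrl3 and Git1, at differences of 0.0968, 0.111 and 0.121, with log2 fold changes of -1.22, -1.13 and -1.16. Since these genes were picked for their likeness, fold changes near that of Ltbp4 were fixed by the choice. For Ltbp3 they were Prelid1, Rgs3 and Fkbp10, at differences of 0.0312, 0.0370 and 0.0446. For Ltbp1 they were Ubl3, Rab14 and Anapc1, at differences of 0.0194, 0.0280 and 0.0394. The genes closest to Ltbp4 and Ltbp3 had transcript GC contents of 54.3% to 58.9%, and those closest to Ltbp1 of 43.0% to 46.9%. The root-mean-square spread of the member itself about its mean was 0.809 for Ltbp4, 0.319 for Ltbp3 and 0.115 for Ltbp1. Differences therefore cannot be compared between members. These likenesses describe 6 libraries that also share the GC trend.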

How the data were processed

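The submitters' processing notes name GRCm38.p6 and DESeq2, with no version or role. Per the labels' protocols, libraries came from a low-input Smart-seq cDNA kit with Nextera XT, a chemistry that does not mark strand. The authors deposited whole-number counts per gene, not normalized, and a table of log2 fold changes, whose log base was judged from 1271 values equal to a DESeq2 fit within 1e-04. No source used here says how strand or multi-mapping reads were counted.

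Counts were tested with edgeR 4.0.16 (glmQLFit, glmQLFTest) in R 4.3.3, with TMM scaling, filterByExpr by group, no covariate, two-sided tests and Benjamini-Hochberg adjustment over 15712 genes. The common biological coefficient of variation was 0.249. SE is the size of the log2 fold change over the square root of F. The 95% intervals use it. RPKM divides TMM-scaled CPM by the union of exons in GENCODE M21. The GC correction took out a lowess trend (span 0.3) of log2 CPM (prior count 2) on longest-transcript GC in each library. Alternatives used DESeq2 1.42.0, limma 3.58.1 and other settings. The procedure was tested on simulated data. The genes and lists were chosen with earlier results of these data known. Named genes were the members, Fbn1, the TGFβ ligands, the 3 smallest unadjusted p of each other pathway list, the leading gene of each cell type list named, and the 3 most like genes of members above the log2 CPM minimum of 3. Further genes were named after their values were seen: D030025P21Rik for shared exons, Xist, Foxp3 and the Cd3 genes.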

Additional observations from a re-analysis of the deposited data

How the results depend on the processing

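The log2 fold changes of the 6 genes kept their sign under every alternative run. Across 14 alternatives that kept all libraries, Ltbp4 ranged from -1.28 (Xist covariate) to -0.70 (replicate block with GC correction), Ltbp3 from -0.59 to -0.16 and Ltbp1 from 0.03 to 0.29. With no filter on low counts Ltbp4 passed at -1.23 (edgeR adjusted p = 0.00127), the 1 member called, and 237 genes were lower and 33 higher. Over all genes, DESeq2 called 3 higher, the replicate block with GC correction 3 higher, and the Xist covariate 0 lower by edgeR (288 lower at an unadjusted p under 0.05). Leaving out 1 library gave Ltbp3 from -0.72 to -0.46, Ltbp4 from -1.57 to -0.96, 0 to 2 members called lower, 1 to 962 genes called lower and 0 to 550 higher, the high ends without WT-795. Tgfb2 ranged from -0.026 (without WT-596, the 1 value that turned) to 0.22. With the replicate block alone Ltbp4 was at -1.14 and members called stayed at 0. The labels do not say what the title numbers mark. Deviations of same-numbered libraries correlated at -0.18, 0.24 and -0.20, which cannot decide whether the numbers pair the libraries. GC correction with each library left out was added after seeing the data, and 0 members were then called. Counts of 18 to 123 per library limit Ltbp2, Lrrc32 and Nrros.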
